A study of Mus musculus with 4 samples.

Results

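The genes described here encode the enzymes with which a cell removes superoxide, peroxides and reactive electrophiles, the enzymes that make and recycle glutathione, and the transcription factor NRF2 with its inhibitor KEAP1. They were chosen by symbol: the glutathione S-transferases of the alpha, kappa, mu, omega, pi and theta classes, the microsomal transferases, the glutathione peroxidases, the peroxiredoxins and 16 named genes. By this rule 54 of the 27179 genes in the table were members. Of these, 46 had a mean normalized count of at least 10 over the 4 libraries and were tested, and 8 fell below that level.

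RNA was taken from medullary kidney tissue at postnatal day 14, giving 2 libraries from mice labelled wild type control, Actr3 WT, and 2 from mice labelled Actr3-fl/fl*Cdh16-Cre, Actr3 KO. Both groups had the strain label C57BL/6 mixed. Actr3 encodes a core subunit of the Arp2/3 complex, which nucleates branched actin, and Cre was driven by the promoter of the tubule cadherin gene Cdh16, so deletion was aimed at tubule epithelium and not at vessels, fibroblasts or blood cells. The labels give no separate control that carries Cre alone. Replicates are numbered in the titles and taken as 1 animal each, and p-values measure only the spread between these samples.

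The recovered reads per library ranged from 36482238 to 40784436. The targeted gene, Actr3, read 8065 and 7275 in the WT-labelled against 12587 and 12480 in the KO-labelled libraries, higher by 0.71 in log2 (SE 0.082, limma adjusted p = 0.000494). The count covers the whole gene and does not show whether exons were deleted, so the groups are named by their labels throughout. Markers of the medulla were present in all libraries. Umod, the uromodulin gene of the thick ascending limb, read 136828 and 143709 in the WT-labelled against 203680 and 138033 in the KO-labelled libraries. Aqp2, the collecting duct water channel gene, read 27437 and 34871 against 6961 and 4576 (log2 difference -2.45, limma adjusted p = 0.000116). Proximal tubule markers were lower in the KO-labelled libraries, 18 of 22, with summed counts of 71786 to 108297 against 233002 to 251642. Much of the WT-labelled sum came from Kap (118424 and 58779) and Aqp1 (51220 and 68596), which differed in opposite directions between replicates. The sum thus does not show how far replicates differed for single markers. Slc34a1 read 9589 and 18430 in the WT-labelled against 1171 and 3902 in the KO-labelled libraries. For Slc22a12 the counts were 2192 and 2192 against 878 and 1522. Macrophage and dendritic cell markers were higher, 21 of 22, with summed counts of 86476 to 94876 against 19376 to 26334. Thick ascending limb markers were lower in 12 of 15 cases and higher in 2, endothelial markers lower in 14 of 14 and injured tubule markers higher in 18 of 19. Collecting duct principal cell markers were lower in 10 of 16 cases and higher in 2, and intercalated cell markers lower in 11 of 14. No marker of these lists was at 0 in all libraries, and in bulk RNA fewer cells of a type and less RNA per cell cannot be told apart.

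Superoxide dismutases turn superoxide into hydrogen peroxide, which catalase, the glutathione peroxidases and the peroxiredoxins then reduce. Most glutathione peroxidases draw on glutathione, a tripeptide recycled by glutathione reductase, and most peroxiredoxins on thioredoxin, recycled by thioredoxin reductase. NRF2, encoded by Nfe2l2, is held at low protein levels by KEAP1 and, once released from it, activates many of these genes through antioxidant response elements in DNA. Because this control acts largely on the protein, the Nfe2l2 transcript is only a partial measure of it.

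Antioxidant genes moved in both directions. With limma at an adjusted p under 0.05, 16 of the 46 tested members rose in the KO-labelled libraries, 15 fell and 15 did not pass the threshold. That is 67.4% called in either direction, beside 51.2% of the 16253 genes tested. The share called higher was 34.8%, beside 26.3% of all genes tested, and the share called lower was 32.6%, beside 24.9%. The median log2 difference of the tested members was 0.052, beside 0.0029 for all genes tested, and the median size of the difference was 0.43, beside 0.41. Log2 differences were taken on the log2(normalized count + 1) scale, the KO-labelled mean less the WT-labelled mean, and folds are ratios of group means. The groups did not overlap in 38 of the 46 tested members, 82.6%, beside 78.5% of all genes tested. The KO-labelled libraries lay above in 21 of them and below in 17, and over all genes tested above in 39.8% and below in 38.7%.

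**Figure D1:**
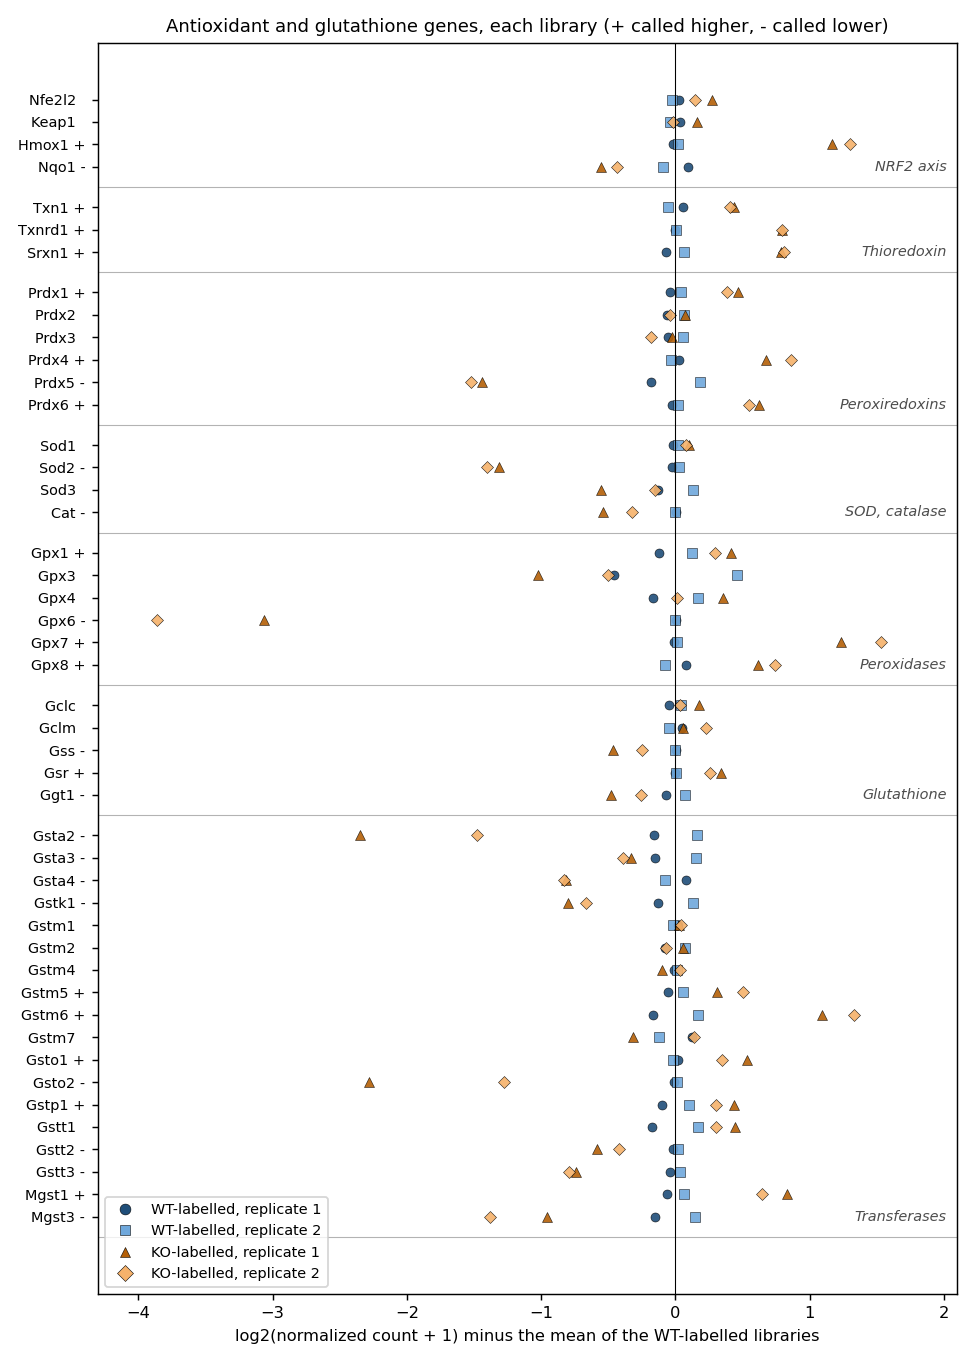
Each tested member in each library, as log2(normalized count + 1) minus the mean of the 2 WT-labelled libraries, grouped by role (symbols are libraries, + and - mark members called higher and lower). Gpx6 lies farthest to the left and Gpx7 and Hmox1 are among the farthest to the right, while the mu-class transferases Gstm1, Gstm2 and Gstm4 lie close to 0.

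Differences of 1 or more on the log2 scale were called in 9 members, split between 3 higher and 6 lower. Over all genes tested, 10.7% rose and 9.45% fell by that much. The rises were Gpx7, Hmox1 and Gstm6, and the falls Gpx6, Gsta2, Gsto2, Prdx5, Sod2 and Mgst3.

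NRF2 axis genes went different ways. Hmox1, heme oxygenase 1, which breaks down heme (chromosome 8, 75093618 to 75100593, GRCm38), had normalized counts of 488 and 502 in the WT-labelled libraries against 1110 and 1217 in the KO-labelled ones. Both KO-labelled libraries were above both others, and the mean rose 2.35-fold, from 495 ± 10.2 to 1164 ± 75.7 (SD, n = 2; log2 difference 1.23, SE 0.11, limma adjusted p = 0.000177). Macrophages are a known site of heme oxygenase, and the summed macrophage markers given above rose with it; their part in the rise of Hmox1 was not tested.

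Nqo1, a quinone reductase often read as a marker of NRF2 activity (chromosome 8, 107388225 to 107403205), went the other way. Its counts were 917 and 808 in the WT-labelled against 585 and 638 in the KO-labelled libraries, with no overlap. The mean fell 1.41-fold (log2 difference -0.49, SE 0.12, limma adjusted p = 0.0135). Leaving out WT replicate 1 ended that call (-0.40, adjusted p = 0.078), as did leaving out KO replicate 1 (-0.43, 0.0717). Nfe2l2 read 9039 and 8681 against 10687 and 9797, a log2 difference of 0.21 (SE 0.081) that did not pass the threshold (limma adjusted p = 0.0669); it did after quantile normalization (0.26, 0.028) and scaling to total reads (0.25, 0.0308). Keap1 read 2008 and 1908 against 2186 and 1936, so the groups overlapped (log2 difference 0.07, SE 0.095, adjusted p = 0.555).

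**Figure D2:**
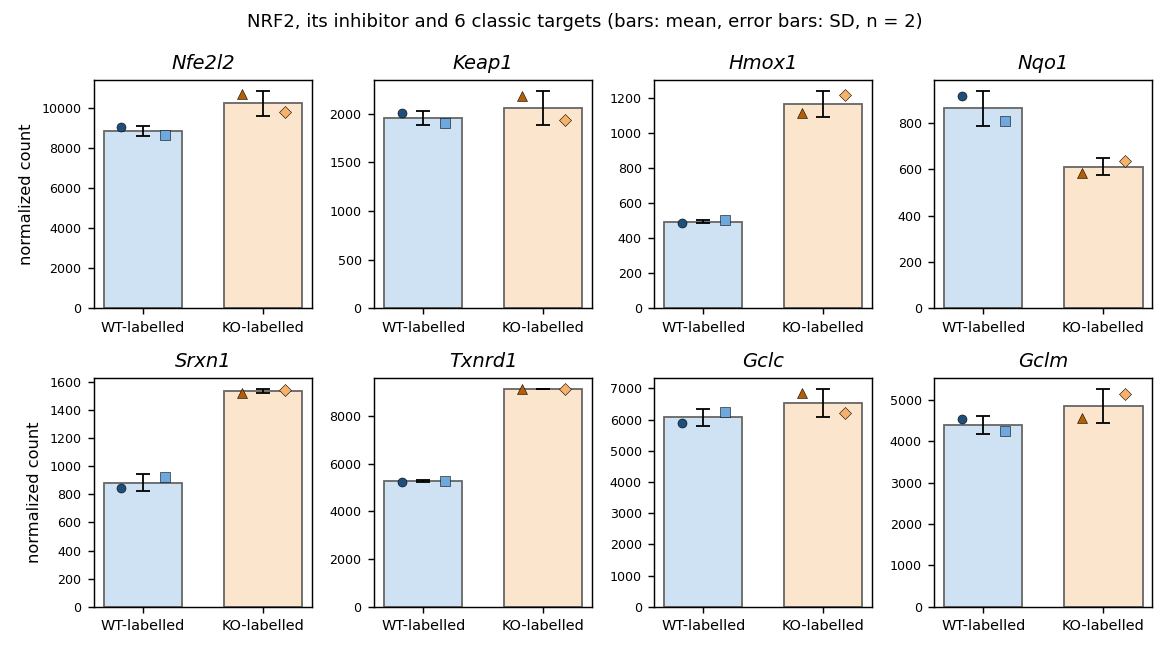
Normalized counts of Nfe2l2, Keap1 and 6 genes known as NRF2 targets in each library (points), with the group mean (bars) and SD (error bars, n = 2); each panel has its own axis from 0. Hmox1, Srxn1 and Txnrd1 are higher in both KO-labelled libraries, Nqo1 is lower, and Gclc and Gclm did not pass the threshold.

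The cytosolic thioredoxin genes Txn1, Txnrd1 and Srxn1 rose. Txnrd1, cytosolic thioredoxin reductase, a selenoprotein (chromosome 10, 82833951 to 82897724), had counts of 5242 and 5291 in the WT-labelled against 9129 and 9121 in the KO-labelled libraries. Replicates differed little beside the gap between groups, and the mean rose 1.73-fold (log2 difference 0.79, SE 0.071, limma adjusted p = 0.000167). Srxn1, sulfiredoxin, which restores over-oxidized peroxiredoxins (chromosome 2, 152105524 to 152111376), rose 1.74-fold. It read 842 and 924 against 1524 and 1545 (log2 difference 0.80, SE 0.099, limma adjusted p = 0.000673). Txn1, cytosolic thioredoxin, read 6864 and 6380 against 8942 and 8765, a 1.34-fold rise (log2 difference 0.42, SE 0.077, adjusted p = 0.00384). Each of the 3 was called in all 16 other settings tried. Their relatives outside the members, named after their values were seen, were not all higher. Txn2, mitochondrial thioredoxin, fell from 4180 and 4766 to 3446 and 3290 (log2 difference -0.41, SE 0.090, adjusted p = 0.00885). Txnrd2, the mitochondrial reductase, had a log2 difference of 0.18 (adjusted p = 0.241), and Txnrd3, another reductase, rose (0.66, adjusted p = 0.00383). Txnip, an inhibitor that binds thioredoxin, had a log2 difference of -0.41 (adjusted p = 0.0382). That call ended when WT replicate 1 (-0.22, adjusted p = 0.151), KO replicate 1 (-0.44, 0.0895) or KO replicate 2 (-0.38, 0.129) was left out.

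Some members that were called higher, called lower or not called carry in their promoters the core of the antioxidant response element, TGACNNNGC. RefSeq promoter windows on GRCm38.p6 ran from 250 bases before to 50 bases after each annotated start. They were found for 47 of the 54 members, and both strands were searched. None was found for Gclc, Gsr, Sod3, Hmox1, Gstt2, Gsta4 and Prdx6, and bases outside the windows were not searched. The core was found in 11 of these 47, 23.4%, and in 14% of the 27025 genes that have such a window. By call it was found in 5 of 13 members called higher, 2 of 13 called lower and 4 of 13 not called. These are matches of letters, and the data do not show binding of NRF2. Of the 5 called higher, the windows of Txnrd1, Srxn1, Prdx1 and Mgst1 are printed below and that of Gstm5 is not. They are in lower case, in the direction of the gene, with the match in capitals. In each of the 4 printed windows the match lies on the opposite strand, and in Gstm5 on the strand of the gene. Other windows of Txnrd1 and Mgst1 hold no match. The core was also found in Ggt1 and Gsta3, called lower, and in Gclm, Gstm7, Nfe2l2 and Sod1, not called.
Txnrd1, chr10:82858956-82859255, plus strand: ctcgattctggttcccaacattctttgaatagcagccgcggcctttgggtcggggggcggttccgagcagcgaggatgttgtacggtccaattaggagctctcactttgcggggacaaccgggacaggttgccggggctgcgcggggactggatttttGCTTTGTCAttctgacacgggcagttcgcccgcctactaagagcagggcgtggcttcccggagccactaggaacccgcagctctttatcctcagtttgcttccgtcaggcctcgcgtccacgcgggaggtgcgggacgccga
Srxn1, chr2:152105274-152105573, plus strand: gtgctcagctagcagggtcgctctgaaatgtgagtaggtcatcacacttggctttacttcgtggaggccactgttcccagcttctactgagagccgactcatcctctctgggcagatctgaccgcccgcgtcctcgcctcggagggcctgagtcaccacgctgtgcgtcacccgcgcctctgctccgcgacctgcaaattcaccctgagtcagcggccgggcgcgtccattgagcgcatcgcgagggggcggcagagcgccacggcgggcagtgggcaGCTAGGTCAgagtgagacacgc
Prdx1, chr4:116685349-116685648, plus strand: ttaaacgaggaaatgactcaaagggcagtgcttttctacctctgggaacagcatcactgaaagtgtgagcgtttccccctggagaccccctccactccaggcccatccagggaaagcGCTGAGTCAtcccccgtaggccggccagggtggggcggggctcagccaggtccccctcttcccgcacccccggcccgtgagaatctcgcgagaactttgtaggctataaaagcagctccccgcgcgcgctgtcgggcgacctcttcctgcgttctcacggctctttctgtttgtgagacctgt
Mgst1, chr6:138140277-138140576, plus strand: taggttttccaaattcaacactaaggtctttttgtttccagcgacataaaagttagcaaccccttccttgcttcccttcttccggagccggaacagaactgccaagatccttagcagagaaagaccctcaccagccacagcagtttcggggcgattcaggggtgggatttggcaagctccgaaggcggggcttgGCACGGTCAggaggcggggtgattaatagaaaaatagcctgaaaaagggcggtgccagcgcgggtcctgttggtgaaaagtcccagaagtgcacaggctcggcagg

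The match starts 92 bases before the annotated start in Txnrd1, 133 before in Prdx1 and 56 before in Mgst1, and at base 29 after it in Srxn1. Read on its own strand, the match of Txnrd1 is TGACAAAGC and that of Prdx1 TGACTCAGC. The latter also holds TGACTCA, the letters of a site bound by AP-1 factors, so the 2 motifs overlap there. TGACTCA was found in 6 of the 47 members with a window, 12.8%, and in 5.95% of all genes. Of the 6, Gstm5, Gstp1, Prdx1 and Srxn1 were called higher, and Gstp2 and Mgst2 were not tested. A stricter form of the response element core, with an A required after it, was found in 2 of the 47, 4.26%, and in 3.45% of all genes. Of these 2, Txnrd1 was called higher and Gsta3 lower. Whether the shares of members and of all genes differ was not tested for any of these motifs.

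Among the 6 peroxiredoxins, thiol peroxidases of different compartments, 3 rose, 1 fell and 2 did not pass the threshold. Prdx5, found in mitochondria, peroxisomes and cytosol (chromosome 19, 6906697 to 6910106), had counts of 24135 and 31168 in the WT-labelled against 10081 and 9536 in the KO-labelled libraries. The groups were far apart, and the mean fell 2.82-fold (log2 difference -1.48, SE 0.13, limma adjusted p = 0.000133). The annotation places 19.1% of the exon bases of Prdx5 under Trmt112 on the opposite strand, and since the strand setting of the counting is not given, reads of the 2 genes may be shared there.

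Prdx1, a cytosolic peroxiredoxin, rose from 8844 and 9375 to 12592 and 11875 (1.34-fold, log2 difference 0.43, SE 0.079, limma adjusted p = 0.00404). Prdx4, the member of the endoplasmic reticulum, rose from 1076 and 1032 to 1685 and 1909 (1.71-fold, log2 difference 0.77, adjusted p = 0.000893). Prdx6, which uses glutathione in place of thioredoxin, rose from 4493 and 4636 to 7037 and 6666 (1.50-fold, log2 difference 0.59, adjusted p = 0.000791). In each of these 3 the KO-labelled libraries lay above the WT-labelled ones. Prdx2, the abundant form of red cells, and Prdx3, the mitochondrial form, overlapped between groups, with log2 differences of 0.01 (SE 0.085) and -0.11 (SE 0.089). Of 8 tested erythroid markers 5 were lower and 2 higher in the KO-labelled libraries, with summed counts of 9406 to 12291 against 22270 to 22470. Much of the WT-labelled sum came from Tfrc (12794 and 12696, against 7923 and 5697) and Slc4a1 (4485 and 4521, against 85.8 and 80.1). Slc4a1 is also on the intercalated cell list, so the sum does not measure red cells alone. The part of these markers in the value of Prdx2 was not tested.

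Per kilobase of exon, Prdx5 was the most abundant peroxiredoxin in all 4 libraries, and its lead shrank. It made up 52% and 56.7% of the summed peroxiredoxin counts per kilobase in the WT-labelled libraries against 26.9% and 27% in the KO-labelled ones. The sum itself was 21687 and 25692 normalized counts per kilobase against 17528 and 16503. Prdx1 held 13.4% and 12% of it in the WT-labelled against 23.6% and 23.6% in the KO-labelled libraries. Exon lengths are those of GENCODE M21, which may differ from the annotation used for counting.

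Of the superoxide dismutases, the mitochondrial manganese enzyme fell and the other two did not pass the threshold. Sod2 (chromosome 17, 13007839 to 13018119) had counts of 9811 and 10172 in the WT-labelled against 4019 and 3775 in the KO-labelled libraries, a 2.56-fold fall (log2 difference -1.36, SE 0.076, limma adjusted p = 2.72e-05). Sod1, the copper-zinc enzyme of the cytosol, read 4144 and 4267 against 4503 and 4437 (log2 difference 0.09, SE 0.073, limma adjusted p = 0.347). Sod3, the secreted form, read 3642 and 4377 against 2718 and 3587, a log2 difference of -0.35 (SE 0.15, adjusted p = 0.0835); it passed the threshold without KO replicate 2 (-0.55, adjusted p = 0.013) and shrank to -0.22 without WT replicate 2 (0.343) and to -0.15 without KO replicate 1 (0.414). Sod2 made up 32.7% and 31.2% of the summed dismutase counts per kilobase in the WT-labelled libraries against 17.7% and 15.4% in the others. For Sod1, 23.1% of its 50-base windows also occur in another annotated gene, Gm8566, which makes its counts less certain.

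Cat, catalase, the peroxisomal enzyme that splits hydrogen peroxide, fell 1.35-fold. Its counts were 7156 and 7137 against 4919 and 5698, without overlap (log2 difference -0.43, SE 0.091, limma adjusted p = 0.00701); without KO replicate 1 the value was -0.33 (adjusted p = 0.0509). Of the members described here as mitochondrial, Sod2, Prdx5 and Gstk1 fell, and Prdx3, at -0.11 in log2, missed the threshold. They are not a full list of members that can occur in mitochondria, so no direction is given for such members as a set. Thick ascending limb and proximal tubule cells are rich in mitochondria, and the summed thick ascending limb markers were 206812 to 290492 in the KO-labelled against 596833 to 615390 in the WT-labelled libraries. The part of these markers in the falls of Sod2, Prdx5 and Cat was not tested.

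**Figure D3:**
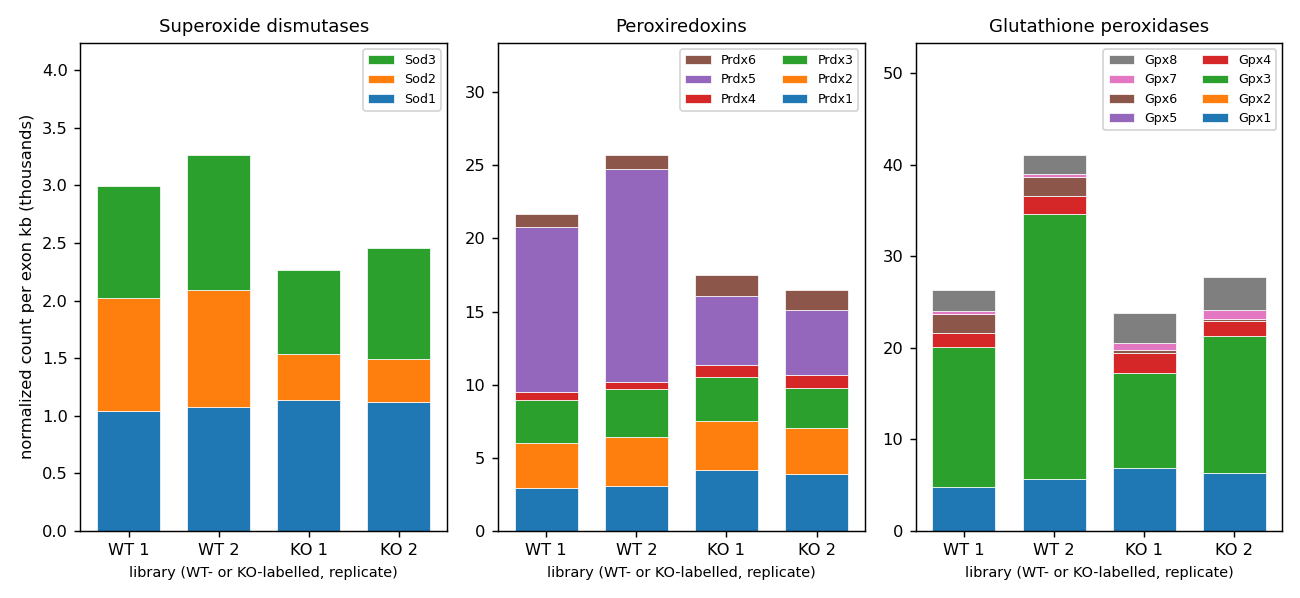
Summed normalized counts per kilobase of exon (axes in units of 1000, from 0) for the superoxide dismutases, peroxiredoxins and glutathione peroxidases in each library, stacked by gene. The bands of Sod2 and Prdx5 are smaller in both KO-labelled libraries, and Gpx3 is the widest band of the peroxidases in all 4.

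The glutathione peroxidases, which reduce hydrogen peroxide and lipid peroxides, went furthest in both directions. Of 8 members 6 were tested, of which 3 rose, 1 fell and 2 did not pass the threshold. Gpx6 (chromosome 13, 21295465 to 21319625), a peroxidase first known from olfactory tissue, had counts of 2895 and 2885 in the WT-labelled against 344 and 198 in the KO-labelled libraries. The mean fell 10.7-fold, from 2890 ± 7.22 to 271 ± 104 (SD, n = 2; log2 difference -3.46, SE 0.24, limma adjusted p = 5.61e-05). This was the deepest fall of any tested member. Per kilobase it moved from rank 14 to rank 42 among the 54 members.

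Gpx7 and Gpx8, peroxidases of the endoplasmic reticulum that take part in oxidative protein folding, rose with Prdx4 of the same compartment. Gpx7 (chromosome 4, 108400217 to 108406713) had counts of 449 and 457 against 1067 and 1313, a 2.63-fold rise (log2 difference 1.38, SE 0.13, limma adjusted p = 0.000233). Gpx8 had counts of 2356 and 2116 against 3413 and 3742, a 1.60-fold rise (log2 difference 0.68, SE 0.093, adjusted p = 0.00107). Fibroblast and mural markers were higher in 8 of 13 cases and lower in 2, with summed counts of 538667 to 622298 against 228202 to 239846, and their part in these rises was not tested.

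Gpx1, the widespread cytosolic selenoenzyme, read 6838 and 8110 against 9918 and 9118. The mean rose 1.27-fold (log2 difference 0.35, SE 0.10, limma adjusted p = 0.0253). It did not pass when WT replicate 1 (0.23, adjusted p = 0.112) or KO replicate 1 (0.29, 0.124) was left out. Gpx3, the secreted peroxidase of plasma that the kidney tubule is known to supply, was the most abundant member per kilobase in both groups. Its counts were 27807 and 52602 in the WT-labelled against 18826 and 27047 in the KO-labelled libraries, so replicates differed widely and WT replicate 1 lay close to KO replicate 2. The log2 difference was -0.76 (SE 0.29, limma adjusted p = 0.0669). With WT replicate 1 left out it was called (-1.22, adjusted p = 0.00948), and likewise with KO replicate 2 left out (-1.02, 0.0263). Without WT replicate 2 the difference shrank to -0.30 (adjusted p = 0.306) and without KO replicate 1 to -0.50 (0.237), so its size rests on which libraries are used. Gpx4, which reduces lipid peroxides in membranes, overlapped between groups, at 2626 and 3315 against 3771 and 2974 (log2 difference 0.18, SE 0.15), and 61.7% of its 50-base windows also occur in the pseudogene Gpx4-ps2. Gpx2 and Gpx5 had 5 reads each over all libraries and were not tested.

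Of the 3 genes that make glutathione, 1 fell and the others did not pass the threshold. Gclc, the catalytic subunit of glutamate-cysteine ligase, the rate-limiting step, read 5882 and 6260 against 6853 and 6225, with overlap (log2 difference 0.11, SE 0.084, limma adjusted p = 0.323). Gclm, its modifier subunit, read 4550 and 4243 against 4571 and 5149, barely apart (log2 difference 0.14, SE 0.089, adjusted p = 0.22). Neither was called in any of the 16 other settings. Gss, glutathione synthetase, which adds glycine in the last step, read 4041 and 4024 against 2926 and 3398, a 1.28-fold fall (log2 difference -0.35, SE 0.093, adjusted p = 0.0174). That call was lost without WT replicate 1 (-0.35, adjusted p = 0.0654), WT replicate 2 (-0.36, 0.0598) or KO replicate 1 (-0.25, 0.123).

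Recycling and breakdown are represented among the members by 1 gene each. Gsr, glutathione reductase, read 4662 and 4670 against 5914 and 5570, a 1.23-fold rise (log2 difference 0.30, SE 0.075, limma adjusted p = 0.0144; 0.26 and adjusted p = 0.109 without KO replicate 1). Ggt1, the brush-border enzyme that starts the breakdown of filtered glutathione and a gene of the proximal tubule, read 5415 and 5984 against 4082 and 4757, a 1.29-fold fall (log2 difference -0.37, SE 0.10, adjusted p = 0.0197). It was not called without WT replicate 2 (-0.30, adjusted p = 0.0968) or KO replicate 1 (-0.26, 0.126). The median log2 difference of the proximal tubule markers was -1.72, and their part in the fall of Ggt1 was not tested. The related genes Ggt5, Ggt6 and Ggt7, outside the members and named after their values were seen, were higher, with log2 differences of 0.53, 0.73 and 0.85 (limma adjusted p = 0.0182, 0.0395 and 0.0156). None of the 3 calls held throughout when single libraries were left out. For Ggt5 the adjusted p was 0.0865 without WT replicate 1, 0.0812 without KO replicate 1 and 0.0599 without KO replicate 2. For Ggt7 it was 0.0544 without WT replicate 1, 0.0597 without WT replicate 2 and 0.0928 without KO replicate 1. For Ggt6 it was 0.0856 to 0.150 whichever of the 4 libraries was left out.

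Glutathione transferases, which couple glutathione to electrophiles, were the largest family, with 24 members, of which 18 were tested. Of these 5 rose, 8 fell and 5 did not pass the threshold, beside 26.3% of all genes tested called higher and 24.9% lower. In the alpha class all 3 tested members fell. Gsta2 (chromosome 9, 78331018 to 78347192) fell 3.65-fold, from 369 and 463 to 80.4 and 148 (log2 difference -1.91, SE 0.30, limma adjusted p = 0.00194). Gsta4, which acts on the lipid peroxidation product hydroxynonenal, fell 1.77-fold, from 1777 and 1595 to 957 and 949 (log2 difference -0.82, adjusted p = 0.000598). Gsta3 had a log2 difference of -0.36 (adjusted p = 0.0462), lost without WT replicate 2 (-0.20, 0.211), KO replicate 1 (-0.39, 0.0965) or KO replicate 2 (-0.33, 0.143). Of the 50-base windows of Gsta2, 64.2% also occur in other genes, Gsta1 above all, so reads may be split between them; Gsta1 itself had 6 reads.

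The mu class, whose genes lie side by side on chromosome 3, had 4 of its 6 tested members below the threshold. Gstm1 read 3759 and 3649 against 3774 and 3806, a log2 difference of 0.03 (SE 0.074), and Gstm2 read 3511 and 3890 against 3838 and 3525, a log2 difference of -0.01 (SE 0.089). They were the most abundant transferases of the class per kilobase. Gstm4 and Gstm7, at log2 differences of -0.03 and -0.09, also missed the threshold. The neighbours Gstm5 and Gstm6 rose. Gstm5 went from 1187 and 1285 to 1528 and 1752 (log2 difference 0.41, limma adjusted p = 0.017; 0.35 and 0.0799 without WT replicate 1, 0.31 and 0.111 without KO replicate 2). Gstm6, a low-abundance gene, went from 18.7 and 23.9 to 46.1 and 54.6 (log2 difference 1.21, SE 0.33, adjusted p = 0.0208; 1.04 and 0.0805 without WT replicate 1, 1.09 and 0.0885 without KO replicate 2). Members of this class share sequence, 23.1% of the 50-base windows of Gstm1 and 11.5% of those of Gstm6 being found in other genes.

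In the omega class, whose 2 genes are adjacent on chromosome 19, Gsto1 rose from 1993 and 1933 to 2840 and 2495 (log2 difference 0.44, SE 0.093, limma adjusted p = 0.00736; 0.35 and 0.0553 without KO replicate 1). Gsto2 fell 3.31-fold, from 91.6 and 93.4 to 18.2 and 37.7 (log2 difference -1.78, SE 0.38, adjusted p = 0.00795). In the theta class Gstt2 and Gstt3 fell, by log2 differences of -0.50 and -0.76 (adjusted p = 0.00609 and 0.000417), and Gstt1 had one of 0.37 (adjusted p = 0.0537), called without WT replicate 2 (0.54, 0.0198) and at 0.20 without WT replicate 1 (0.234). Of the windows of Gstt3, 26% also occur in Gm20441. Gstk1, the kappa-class enzyme of mitochondria and peroxisomes, fell 1.67-fold, from 767 and 918 to 483 and 529 (log2 difference -0.73, SE 0.14, adjusted p = 0.00405).

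The pi-class gene Gstp1 had a log2 difference of 0.37 (limma adjusted p = 0.0402). It did not pass without WT replicate 1 (0.27, adjusted p = 0.169), KO replicate 1 (0.30, 0.195) or KO replicate 2 (0.44, 0.0667); 62.3% of its windows also occur in Gstp2. The microsomal transferases, membrane enzymes related to those of leukotriene synthesis, went opposite ways. Mgst1 rose 1.67-fold, from 3173 and 3453 to 5890 and 5176 (log2 difference 0.74, SE 0.094, adjusted p = 0.00075). Mgst3 (chromosome 1, 167371966 to 167393841) fell 2.24-fold, from 2512 and 3087 to 1432 and 1070 (log2 difference -1.17, SE 0.16, adjusted p = 0.00106). The summed transferase counts per kilobase were 15425 and 16657 in the WT-labelled against 15673 and 14849 in the KO-labelled libraries, and the groups overlapped. Within that sum Mgst1 went from 10.2% and 10.3% to 18.7% and 17.3%, and Mgst3 from 14.8% and 16.9% to 8.33% and 6.57%. The untested transferases, Gsta1, Gstm3, Gstp2, Gstp3, Gstt4 and Mgst2, had 6 to 35 reads over all libraries.

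Other genes of the pathway were examined in 6 lists, described by counts and medians. Their counts are to be read beside the 26.3% of all genes tested that were called higher and the 24.9% called lower. Among 20 further genes known as NRF2 targets 12 rose, 3 fell and 5 missed the threshold; the median log2 difference was 0.47 beside 0.0029 for all genes tested. Akr1b8, an aldo-keto reductase, rose 7.29-fold, from 248 and 212 to 1671 and 1681 (log2 difference 2.86, SE 0.13, limma adjusted p = 1.3e-05). Cbr3, a carbonyl reductase, rose 3.12-fold, Blvrb, biliverdin reductase B, which acts downstream of heme oxygenase, 2.15-fold, and Ftl1, the ferritin light chain, 1.60-fold. The 3 that fell, named after their values were seen, were Abcc1, an exporter of glutathione conjugates, Cbr1 and Ephx1, with log2 differences of -0.56, -0.68 and -0.90. In this list as among the members, genes known as targets of NRF2 were found on both sides.

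Of 10 partners of NRF2 and KEAP1, 3 rose, 1 fell and 6 did not pass the threshold (median 0.08). Maff, a small MAF protein that pairs with NRF2 on DNA, rose 5.49-fold, from 174 and 220 to 1167 and 997 (log2 difference 2.46, SE 0.17, limma adjusted p = 5.4e-05). The other small MAF genes of the list, Mafg and Mafk, named after their values were seen, did not pass the threshold. Their log2 differences were 0.008 and 0.14 (limma adjusted p = 0.952 and 0.223). Bach2 and Bach1, repressors that compete for the same elements, had log2 differences of 1.29 and 0.36. The call of Bach1 (limma adjusted p = 0.0284) did not hold when WT replicate 2 (0.23, adjusted p = 0.122) or KO replicate 2 (0.30, 0.128) was left out. Nfe2l1, a relative of NRF2, fell (log2 difference -0.40).

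Of 24 genes of glutathione turnover and transport, 13 fell, 5 rose and 6 missed the threshold (median -0.57). Cbs and Cth, the 2 enzymes of transsulfuration that make cysteine for glutathione, fell. Cbs went from 1167 and 1279 to 282 and 371 (3.74-fold, log2 difference -1.91, SE 0.16, limma adjusted p = 0.000121), and Cth from 3593 and 3510 to 1571 and 2022 (1.98-fold, log2 difference -0.99, adjusted p = 0.000705). Dpep1, the brush-border dipeptidase that acts after Ggt1, fell 2.83-fold, and Hpgds, a glutathione-dependent prostaglandin synthase of haematopoietic cells, rose 4.16-fold. Proximal tubule markers were lower in 18 of 22 cases (median -1.72) and macrophage and dendritic cell markers higher in 21 of 22 (median 2.64), and their part in the changes of Cbs, Cth, Dpep1 and Hpgds was not tested.

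In the thioredoxin, glutaredoxin and methionine sulfoxide list 6 of 18 rose and 5 fell (median 0.19); without WT replicate 1 the number called in either direction was 7 in place of 11. Nxn, nucleoredoxin, rose 2.08-fold and Txndc5, a thioredoxin-domain protein of the endoplasmic reticulum, 1.57-fold, while Msrb2, a mitochondrial methionine sulfoxide reductase, fell 1.75-fold and Sesn1, a sestrin, 1.50-fold. Of 18 genes listed for selenoprotein synthesis and other selenoproteins 7 rose and 6 fell (median 0.06), 13 called in all, beside 8 without KO replicate 1. Those that fell include Lrp2 (log2 difference -0.92), a receptor gene and no selenoprotein, which is also among the proximal tubule markers. Selenon rose 2.63-fold, Selenoh 2.09-fold and Selenow 1.71-fold, and Sepsecs, which makes selenocysteine on its tRNA, fell 1.73-fold.

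Genes listed as oxidant producers rose in 8 of 14 tested cases and fell in 2 (median 0.82). The list also holds Ccs, the copper chaperone of Sod1 and no oxidant producer, at a log2 difference of -0.22, not called. Among the risers were genes of the phagocyte NADPH oxidase. Cybb, its catalytic subunit, went from 585 and 475 to 1996 and 2137 (3.90-fold, log2 difference 1.97, SE 0.13, limma adjusted p = 4.54e-05), and its cytosolic subunit genes Ncf1 and Ncf4 rose 3.49-fold and 6.07-fold. Macrophage and dendritic cell markers had a median log2 difference of 2.64, and their part in these rises was not tested.

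**Figure D4:**
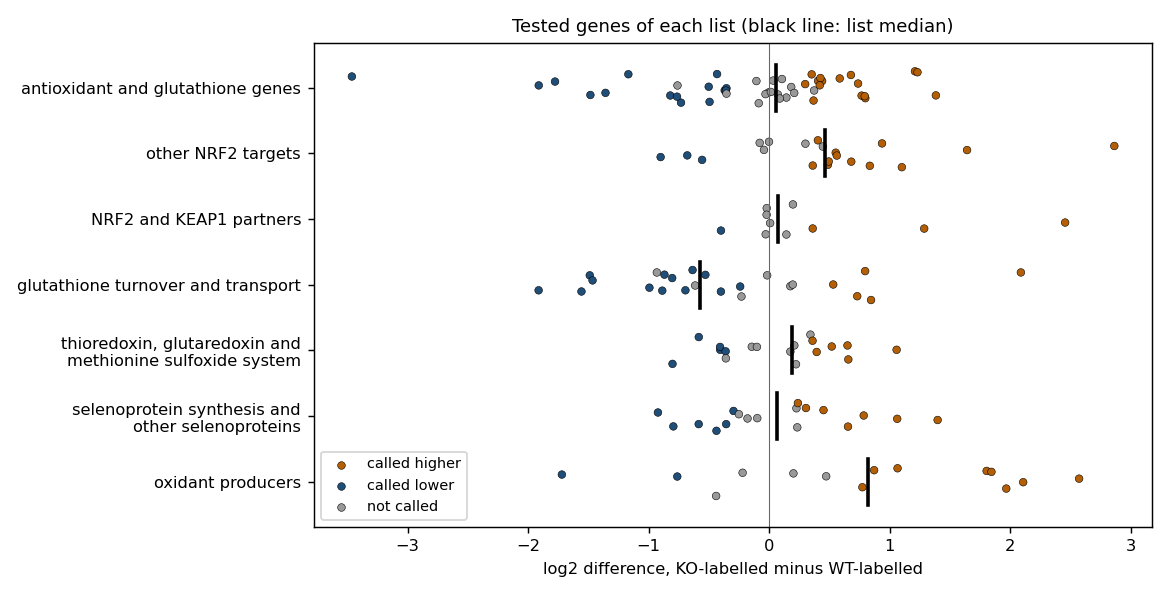
Log2 differences (KO-labelled minus WT-labelled, horizontal axis) of the tested antioxidant and glutathione genes and of 6 further lists, 1 point per gene coloured by call, with the median of each list as a black line. The medians range from -0.57 for glutathione turnover and transport to 0.82 for oxidant producers, and each list holds genes called in both directions.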

How the data were processed

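Total RNA of 4 samples was sequenced by Eurofins GATC Biotech, per the labels' protocols. The deposited table gives normalized signal values, 1 per gene and library. Within 0.001, 100% of them are whole multiples of 1 step per column, which shows whole reads scaled by a factor for each library; the table itself names no method. Per the submitters' processing notes, the tools were DESeq2 2.11.40.7, featureCounts 2.0.1, HISAT2 2.2.1 and fastp 0.20.1 and the builds mm10 and GRCm38. For annotation, strand setting and reads that map to several places, the sources used here give nothing. Of 27179 Entrez IDs, 25275 matched a symbol in a RefSeq table of GRCm38.p6.

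Two-sided limma tests (version 3.58.1, R 4.3.3, trended variance) were run on log2(value + 1) for 16253 genes with a mean of at least 10, with Benjamini-Hochberg adjustment over all of them at 0.05. The fit had 2 residual degrees of freedom. The tests were also run on simulated data, with the same dispersion for every gene and far fewer changed genes than were called here. Error rates for these data cannot be read from that run. On reads recovered from the steps, 36482238 to 40784436 per library, edgeR 4.0.16 called 4190 genes higher and 4113 lower, and DESeq2 1.42.0 called 4006 and 3817; limma called 4277 and 4051. No library copied another (chi-square per degree of freedom of 22.3 and 16.9 between replicates). Other alternatives were pseudocounts of 0.5 and 5, filters, scalings, variance models, a replicate block and leaving out each library.

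Shared sequence was counted as the share of 50-base windows of a member's longest GENCODE M21 coding transcript found in another gene. Every member could be named; values per library are given for called members that differ by 1 or more in log2 and for the 16 named genes, and of each other list up to 4 called genes with the smallest adjusted p, of which 1 is not reported here. The members and lists were chosen with earlier results of these data known, so no list was tested as a set.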

Additional observations from a re-analysis of the deposited data

How the results depend on the processing

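Over the 16 other settings, the members called higher numbered 12 to 18 and those called lower 10 to 16, each within 1.5 times the reported count, and the median log2 difference ranged from 0.033 to 0.096. Of the 31 called members, 20 were called in every setting that tested them; of the 15 others, 11 were called in none. Without the members that share over 20% of their windows or exon bases with other genes, an alternative chosen after seeing the data, 15 were higher and 13 lower. With no variance trend the called genes of the thioredoxin list numbered 6 in place of 11 and those of the selenoprotein list 8 in place of 13. Leaving out 1 library at a time, they numbered 7 to 11 and 8 to 10. The log2 difference of Gstm2 turned to 0.018 after quantile normalization and 0.037 with scaling to total reads, and that of Gstm4 to 0.013 with the latter. With 1 library left out, log2 differences ranged from -0.081 to 0.067 for Gstm2, -0.098 to 0.036 for Gstm4, -0.31 to 0.14 for Gstm7, -0.016 to 0.16 for Keap1 and -0.051 to 0.079 for Prdx2, none of them called. The spread of the lone library is then taken from the other group. The cause of these turns was not tested. The labels do not pair the replicate numbers, and same-numbered deviations correlated at -0.056 across genes. With a replicate block 15 members were higher and 16 lower; Gpx3 (adjusted p = 0.00163) and Sod3 (0.0255) were then called, and Gsta3 (0.0636), Gstp1 (0.0723) and, outside the members, Ggt6 (0.0647) were not. Having 2 libraries per group limits the precision, and standard errors of the members ranged from 0.071 to 0.38.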
